A study of Mus musculus with 6 samples.

Results

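The transcription factors that mark radial glia and prepare them to make glia were followed in newborn mouse cortex lacking 1 copy of Npas3. The set was fixed by name, with earlier results of these data known, and held 10 genes of the 53379 in the count table. They are the nuclear factor I genes Nfia, Nfib and Nfix, the SOX genes Sox9 and Sox2, the zinc finger gene Zbtb20, and the homeobox or paired-box genes Pax6, Hopx, Emx2 and Lhx2. All 10 passed the filter on low counts, which kept 21244 genes. RNA was sequenced in bulk from cortex of C57BL/6 mice at postnatal day 0, in 3 libraries that were heterozygous for Npas3 (Npas3+/-) and 3 that were wild type (WT). The comparison asked what the loss of 1 copy of Npas3, the gene of a neural bHLH-PAS transcription factor, does to the cortical transcriptome. The labels do not describe the mutant allele, the sex of the mice, or whether each library came from its own animal, so p-values measure the spread between these libraries only. In bulk tissue, fewer cells of a type and less RNA per cell cannot be told apart.

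Radial glia are the stem cells of the embryonic cortex, which line the ventricle, first give rise to neurons and around birth turn to making astrocytes and other glia. SOX2, PAX6, LHX2 and EMX2 maintain these cells and give them their cortical identity, and HOPX marks a subset of them that includes basal radial glia. SOX9 and the nuclear factor I proteins then open the glial programme, and SOX9 is known to induce Nfia and to act with it on astrocyte genes. Several of the 10 genes are not confined to progenitors: Nfia, Nfib and Nfix are also active in cortical projection neurons, Zbtb20 in hippocampal neurons and astrocytes, and Lhx2 in upper-layer neurons.

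Total counts per library ran from 67378231 to 87811574, and 1 count corresponded to 0.0114 to 0.0148 CPM, the count scaled to a common library depth. Npas3 itself was counted at 14.96, 14.1 and 8.61 CPM in the Npas3+/- libraries, against 23.4, 28.4 and 25.7 CPM in WT, 48.6% of the WT mean and with no overlap, in the direction of the labels. The summed level of 10 markers of cortical projection neurons was 2456 to 3362 CPM over the 6 libraries. Markers of the striatum, which lies beneath the cortex, were present at levels that differed widely within each genotype, with a sum over 12 genes of 94.7 to 155.1 CPM in Npas3+/- and 101 to 278.3 CPM in WT. Choroid plexus markers summed to at most 2.84 CPM in any library. The transcript Xist, made from the inactive X chromosome, reached 3670 CPM in Npas3+/- replicate 2, where the remaining 5 libraries held no more than 2.02 CPM.

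None of the 10 factors passed the genotype test (edgeR, quasi-likelihood, Benjamini-Hochberg adjustment over the whole table). The adjusted p-values ran from 0.33 for Pax6 to 0.877 for Zbtb20, in a comparison that called 8 of 21244 genes (0.0377%). DESeq2 called 511 genes (3.40% of the 15051 to which it gave an adjusted p) and 0 of the 10, with its lowest adjusted p at 0.124, also for Pax6. Npas3 itself, at a log2 fold change of -1.04, had an adjusted p of 0.27 in edgeR and of 0.000175 in DESeq2. The edgeR test thus did not call the lower level of the targeted gene, and a factor that did not pass is not shown to be unchanged. Of the 10, 3 had an unadjusted p under 0.05, Pax6, Sox2 and Sox9, all lower in Npas3+/- cortex, where 12.1% of all genes were past that level in either direction and 5.84% in the lower direction. Which factors were past that level depended on single libraries and on the settings of the fit. There were 0 without Npas3+/- replicate 2, only Pax6 without Npas3+/- replicate 1, only Sox2 without WT replicate 1, and Pax6 and Hopx without WT replicate 2. Without WT replicate 3 there were 4, of which Sox9 was lower and Nfix, Emx2 and Lhx2 were higher. With all libraries, a replicate block gave Sox2, Pax6 and Hopx, and a GC correction gave Sox2 and Pax6. The score of the striatum markers as a covariate gave Nfib and Pax6. DESeq2 and limma-voom added Nfix to Pax6, Sox2 and Sox9. The groups did not overlap for Sox2 and Pax6, 2 of 10, against 18.9% of all genes and 9.18% in the lower direction. Log2 fold changes of Npas3+/- over WT were below 0 for 6 of the 10 and for 51.8% of all genes, with a median of -0.073 against -0.009.

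**Figure D1:**
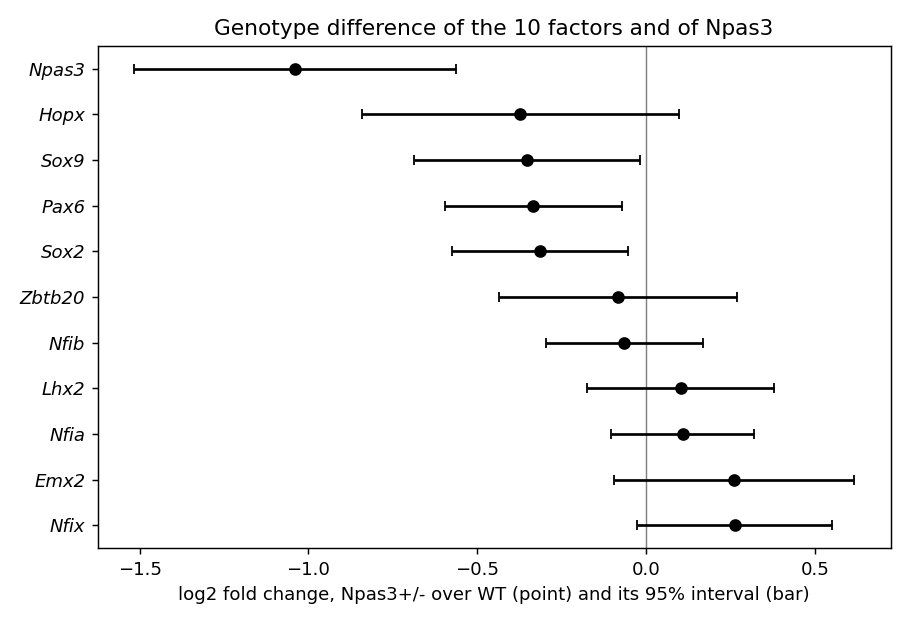
Log2 fold change of Npas3+/- over WT (horizontal axis) for the 10 factors and for Npas3, with its 95% interval as a bar, from 3 libraries per genotype. The intervals of Sox9, Pax6 and Sox2 lie below 0, those of the other 7 factors span 0, and Npas3 is at -1.04.

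The 4 genes with the lowest fold changes were Hopx, Sox9, Pax6 and Sox2. No RefSeq promoter window was found for Sox9, whose Pearson r with Sox2 was 0.75. Promoter sequences are shown for Sox2, Pax6 and Hopx, whose levels followed each other over the libraries, and for Emx2, whose level did not. They give the DNA around starts annotated in RefSeq. Each runs from 250 bases before to 50 after the most upstream start in RefSeq (GRCm38.p6), 5′ to 3′ on the strand of the gene, and capitals mark ACGTG or GCGTG on either strand, the cores recognised by bHLH-PAS dimers of the kind that NPAS3 forms. The windows are chr3:34649745-34650044 on the plus strand for Sox2, chr2:105668646-105668945 on the plus strand for Pax6, chr5:77115074-77115373 on the minus strand for Hopx and chr19:59458440-59458739 on the plus strand for Emx2. In the GENCODE gene models, used here for positions and lengths, Sox2 starts at 34650405, past the end of its window. Emx2 starts there at 59458372, before its window begins.
Sox2: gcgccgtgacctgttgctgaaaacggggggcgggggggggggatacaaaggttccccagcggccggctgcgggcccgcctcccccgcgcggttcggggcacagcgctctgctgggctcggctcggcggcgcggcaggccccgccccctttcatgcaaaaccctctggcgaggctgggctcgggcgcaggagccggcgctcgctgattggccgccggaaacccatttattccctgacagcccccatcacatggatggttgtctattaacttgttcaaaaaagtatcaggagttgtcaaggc
Pax6: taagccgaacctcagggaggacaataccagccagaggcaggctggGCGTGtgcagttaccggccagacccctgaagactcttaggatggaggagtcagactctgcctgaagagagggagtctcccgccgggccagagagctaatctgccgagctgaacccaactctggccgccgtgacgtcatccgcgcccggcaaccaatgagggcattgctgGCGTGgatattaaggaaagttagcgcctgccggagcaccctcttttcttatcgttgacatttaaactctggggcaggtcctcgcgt
Hopx: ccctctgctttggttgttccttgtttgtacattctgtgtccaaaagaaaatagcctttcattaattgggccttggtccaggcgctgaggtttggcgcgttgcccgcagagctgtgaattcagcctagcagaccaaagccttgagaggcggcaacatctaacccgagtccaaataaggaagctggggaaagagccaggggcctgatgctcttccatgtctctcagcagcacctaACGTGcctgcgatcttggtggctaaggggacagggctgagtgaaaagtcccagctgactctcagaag
Emx2: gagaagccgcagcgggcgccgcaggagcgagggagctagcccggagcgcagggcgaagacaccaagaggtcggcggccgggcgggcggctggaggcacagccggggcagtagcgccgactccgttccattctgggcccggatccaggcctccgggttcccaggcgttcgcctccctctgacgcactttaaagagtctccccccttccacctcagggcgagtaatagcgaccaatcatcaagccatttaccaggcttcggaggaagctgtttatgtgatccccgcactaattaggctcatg

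Among the windows shown, the Pax6 sequence held GCGTG at bases 46 and 215 and the Hopx sequence held ACGTG at base 234, while the Sox2 and Emx2 sequences held neither. RefSeq windows were found for 8 of the 10 genes, all but Nfib and Sox9. There were 14 in all because several genes have more than 1 start. ACGTG was in 4 of the 14, 2 of Hopx and 1 each of Pax6 and Lhx2, and GCGTG in 3 of the 14, 1 each of Nfix, Pax6 and Hopx. Among all 32851 windows of 300 bases, 19.6% held ACGTG and 32.4% held GCGTG on either strand. The nuclear factor I core TTGGC was in 6 of the 14 (46.7% of all windows), 3 of them of Nfix, and the SOX core ACAATG was in 2 of the 14 (12.6% of all windows), 1 each of Nfia and Nfix. These matches are a description of the letters and were not tested for binding.

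Sox2, the SOXB1 factor that maintains neural stem cells, is a gene of 1 exon on chromosome 3 (mm10, 34650405 to 34652461). It was counted at 48.8, 42.6 and 57.3 CPM in Npas3+/- replicates 1 to 3 and at 57.7, 64.0 and 63.0 CPM in WT replicates 1 to 3. Each Npas3+/- value was below each WT value, but Npas3+/- replicate 3 and WT replicate 1 were almost level. The mean was 80.5% of WT, with a log2 fold change of -0.31 (SE 0.11, 95% interval -0.58 to -0.05, adjusted p = 0.348 in edgeR). Its relatives in the SOXB1 group did not pass either, with Sox1 at 43.6 ± 7.87 CPM against 52.5 ± 5.62 in WT and Sox3 at a log2 fold change of 0.14. Per length of merged exons, Sox2 supplied 67.1% ± 1.30 of the SOXB1 CPM per kilobase (RPKM) in Npas3+/- and 69.2% ± 1.24 in WT (SD, n = 3), shares that overlapped, while the sum of the family was 43.3 ± 3.02 RPKM in WT and 35.9 ± 5.33 RPKM in Npas3+/-.

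Pax6, the paired-box factor that drives cortical neurogenesis from radial glia (chromosome 2, 105668900 to 105697364), stood at 21.1, 17.5 and 21.2 CPM in Npas3+/- and at 25.5, 22.7 and 27.2 CPM in WT. The groups did not overlap, and the gap between them, from 21.2 CPM in Npas3+/- replicate 3 to 22.7 CPM in WT replicate 2, was smaller than the SD of either group. The mean was 79.3% of WT with a log2 fold change of -0.33 (SE 0.11, 95% interval -0.60 to -0.07, adjusted p = 0.33 in edgeR). Pax6 kept a fold change of -0.25 to -0.40 under the 16 alternatives. With the striatum marker score as a covariate it was at -0.36.

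Hopx, an atypical homeobox gene whose protein does not bind DNA itself, had the lowest fold change of the set and few counts. It was at 7.93, 5.62 and 7.88 CPM in Npas3+/- replicates 1 to 3, from 697, 432 and 595 counts, and at 10.1, 7.18 and 10.4 CPM in WT. WT replicate 2 fell among the Npas3+/- libraries, so the groups overlapped. The log2 fold change was -0.37 (SE 0.20, 95% interval -0.84 to 0.10, adjusted p = 0.512 in edgeR) and was -0.22 without Npas3+/- replicate 2, the library with Xist. Sox2 was at -0.21 and Pax6 at -0.25 without that library, which held the lowest value of each of the 3 genes. Of the 1516 exon bases of Hopx (chromosome 5, 77086988 to 77115121), 412 overlap the antisense gene Hopxos, which averaged 13.0 counts against 626.8 for Hopx.

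Sox9, the SOXE factor that turns neural stem cells towards glia (chromosome 11, 112782224 to 112787760), stood at 20.9, 23.1 and 28.6 CPM in Npas3+/- replicates 1 to 3 and at 32.9, 33.4 and 26.3 CPM in WT. Npas3+/- replicate 3 was above WT replicate 3, so the groups overlapped. The mean was 78.3% of WT, with a log2 fold change of -0.35 (SE 0.14, 95% interval -0.69 to -0.02, adjusted p = 0.391 in edgeR). The order of the 6 libraries for Sox9 was close to their order for the striatum markers. The striatum score, the mean deviation of log2 CPM over its 12 genes, stood for Npas3+/- replicates 1 to 3 at -1.31, -1.41 and 0.51, and for WT at 1.22, 1.59 and -0.60. Over the 6 libraries Sox9 had a Pearson r of 0.97 and a Spearman rho of 0.94 with that score, and an r of 0.96 with the score of the astrocyte markers. These are descriptions over libraries that also differ in genotype. With the striatum score as a covariate the fold change of Sox9 was -0.09 (adjusted p = 0.923 in edgeR). In that fit Sox2 was at -0.21, Hopx at -0.41 and Nfib at -0.24, and Npas3 itself had an adjusted p of 0.802 in edgeR. The score also differed by genotype, with a mean of -0.74 in Npas3+/- and 0.74 in WT.

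**Figure D2:**
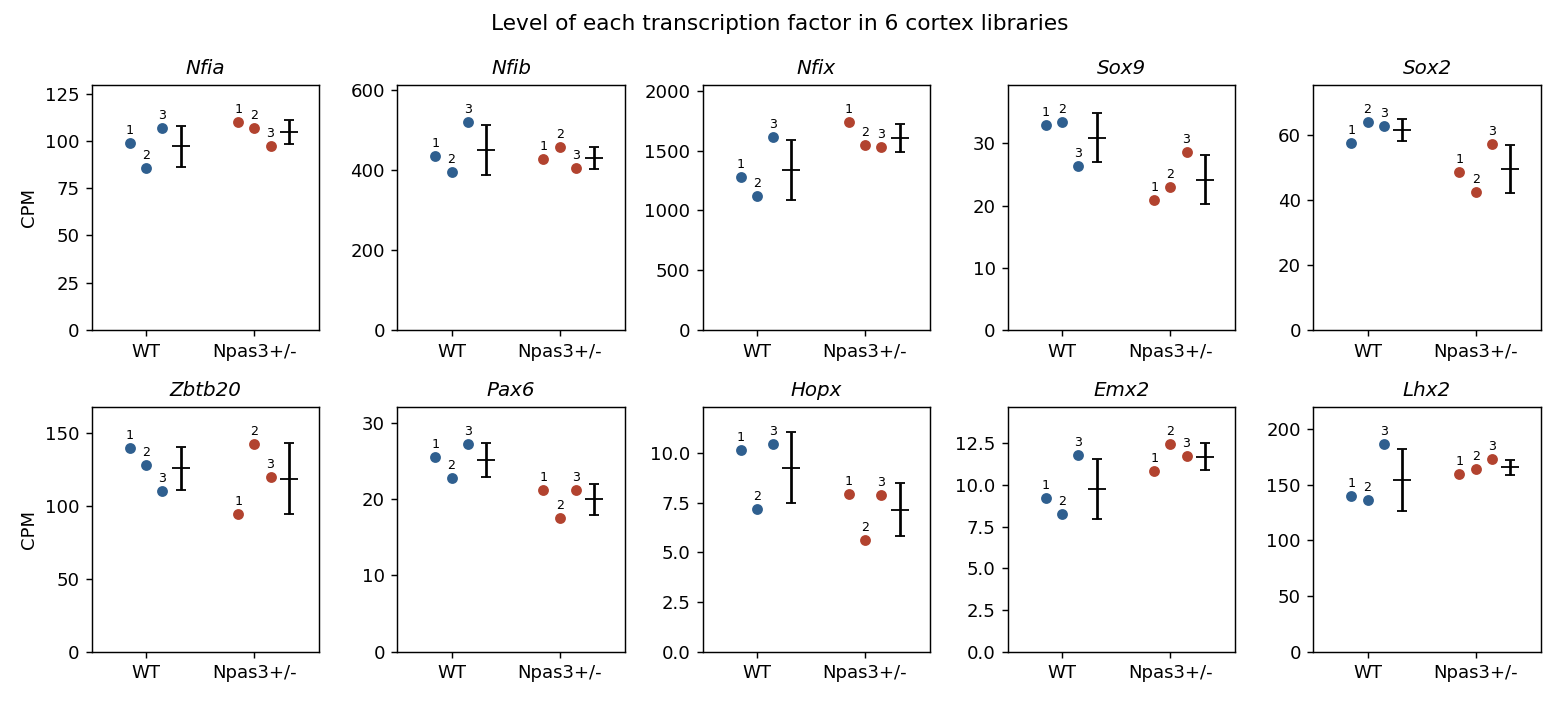
CPM (vertical axis, from 0, a scale of its own for each gene) of the 10 factors in 3 WT and 3 Npas3+/- libraries, with replicate numbers above the points and mean ± SD as a bar beside them. The groups are separate for Sox2 and Pax6 and overlap for the other 8.

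The nuclear factor I genes, which bind DNA as dimers and promote astrocyte genes, did not share a direction, and none passed. Nfix was by far the most abundant factor of the set. It was at 1737, 1547 and 1529 CPM in Npas3+/- and at 1283, 1120 and 1611 CPM in WT, where replicate 3 stood within the Npas3+/- range and replicates 1 and 2 below it. Its log2 fold change was 0.26 (SE 0.12, 95% interval -0.03 to 0.55, adjusted p = 0.451 in edgeR). That value turned on the WT libraries, being 0.42 without WT replicate 3 and 0.15 without WT replicate 2, and it was 0.07 with the striatum score as a covariate.

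Nfia, the member of the family most closely tied to the start of gliogenesis, stood at 109.9, 106.8 and 97.5 CPM in Npas3+/- and at 99.1, 85.7 and 106.9 CPM in WT. The groups overlapped, with a log2 fold change of 0.11 (SE 0.09, 95% interval -0.11 to 0.32). The interval allows a mean between 0.93 and 1.25 times the WT level. The fold change was 0.03 without WT replicate 2, 0.20 with the correction for GC content and -0.04 with the striatum score as a covariate.

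Nfib, which is needed for the maturation of cortical neurons and glia, was at 427.8, 457.6 and 404 CPM in Npas3+/- and at 434.5, 394.8 and 518.3 CPM in WT. Its Npas3+/- values all lay inside the WT range. The log2 fold change was -0.06 (SE 0.10, 95% interval -0.30 to 0.17), which allows 0.82 to 1.12 times the WT level, and it took either sign under the alternatives, from -0.24 to 0.06. The remaining family member, Nfic, stood at 33.3 ± 10.96 CPM in Npas3+/- and 42.7 ± 5.07 CPM in WT (SD, n = 3).

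Per length of merged exons, Nfix made up 83.9%, 82.8% and 83.5% of the RPKM of the 4 nuclear factor I genes in the Npas3+/- libraries, against 79.5%, 78.8% and 81.4% in WT. Nfib made up 10.2%, 12.04% and 10.9% in Npas3+/- and 13.2%, 13.6% and 12.9% in WT. Both shares separated the genotypes without overlap, Nfix on the higher side and Nfib on the lower side in Npas3+/-, although neither gene did so in CPM. Of all genes tested, 18.9% did not overlap in CPM. The longest transcript has 57.1% GC in Nfix and 43.3% in Nfib. With the correction for GC content the log2 fold change was 0.24 for Nfix and 0.03 for Nfib, and the shares were not computed with that correction. The shares of 1 library add to a whole, so these are not independent, and the smallest p of an exact permutation test (two-sided) in this design is 0.1. The sum over the family was 261.6 ± 17.6 RPKM in Npas3+/- and 227.4 ± 38.4 RPKM in WT (SD, n = 3), with overlap between the groups.

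Zbtb20, a zinc finger repressor that acts in hippocampal neurons and in astrocyte formation, had the widest spread among the Npas3+/- libraries. It was at 93.99, 142.2 and 119.5 CPM in Npas3+/- replicates 1 to 3, a coefficient of variation of 20.3%, and at 139.2, 127.8 and 109.8 CPM in WT. Npas3+/- replicates 1 and 2 were the lowest and the highest of all 6 libraries. The log2 fold change was -0.08 (SE 0.15, 95% interval -0.44 to 0.27), and it ran from -0.23 without Npas3+/- replicate 2 to 0.06 without Npas3+/- replicate 1.

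Emx2 and Lhx2, homeobox genes that define the cortical field of the early forebrain, had fold changes above 0 that did not pass. Emx2 was at 10.8, 12.5 and 11.8 CPM in Npas3+/- and at 9.22, 8.28 and 11.8 CPM in WT, where replicate 3 was level with the Npas3+/- libraries. Its log2 fold change was 0.26 (SE 0.15, 95% interval -0.10 to 0.62), or 0.42 without WT replicate 3, 0.16 without WT replicate 2 and 0.10 with the striatum score as a covariate. Of the exon bases of Emx2, 264 overlap the antisense gene Emx2os, which averaged 144.3 counts against 827.2 for Emx2. Lhx2 was at 159.5, 164.5 and 173.2 CPM in Npas3+/- and at 139.7, 136.7 and 186.7 CPM in WT, so WT replicate 3 was the highest library and the others in WT the lowest. Its log2 fold change was 0.10 (SE 0.12, 95% interval -0.17 to 0.38), or 0.27 without WT replicate 3 and 0.02 without WT replicate 2.

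On the scale of length, in RPKM over merged exons and over all 6 libraries, the levels ran in the order Nfix (200.1 ± 30.9), Lhx2 (36.4 ± 4.39), Nfib (29.4 ± 2.98), Sox2 (27.0 ± 4.07), Nfia (9.27 ± 0.82), Sox9 (6.66 ± 1.23), Hopx (5.41 ± 1.20), Zbtb20 (3.97 ± 0.60), Emx2 (3.57 ± 0.55) and Pax6 (1.93 ± 0.29), as mean ± SD with n = 6. Nfix stood 5.49 times above Lhx2, and its range did not meet that of any other factor. The ranges of Sox2 and Nfia, and of Emx2 and Pax6, were also apart, whereas the other neighbours in the order overlapped. Nfib was above Sox2 in 4 of 6 libraries, Sox9 above Hopx in 4 of 6 and Zbtb20 above Emx2 in 3 of 6 on this scale. The order depended on the gene model. The place of Pax6 changed because its merged exons span 11694 bases and its longest protein-coding transcript 4427. Divided by the longest protein-coding transcript, Pax6 was at 5.09 ± 0.78 RPKM and above Zbtb20 and Emx2. On that scale Nfib (48.2 ± 4.90) was above Sox2 in all 6 libraries with no overlap, Zbtb20 was above Emx2 in 5 of 6, and Sox9 was above Hopx in 3 of 6.

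The 10 factors did not vary as a single block over the 6 libraries. Of their 45 pairs, 23 had a negative Pearson r of log2 CPM, and the median r was -0.01. Pax6 and Hopx had an r of 0.94, Pax6 and Sox2 of 0.83, Sox2 and Sox9 of 0.75, and Sox2 and Hopx of 0.67. On the other side, Nfia and Nfix had an r of 0.91, Emx2 and Lhx2 of 0.89, and Nfix and Emx2 of 0.86. Sox9 ran against Nfix (r of -0.88) and Nfia (r of -0.84). All points share their library, depth and tissue piece, and include the genotype difference, so the coefficients are given as a description with n = 6.

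**Figure D3:**
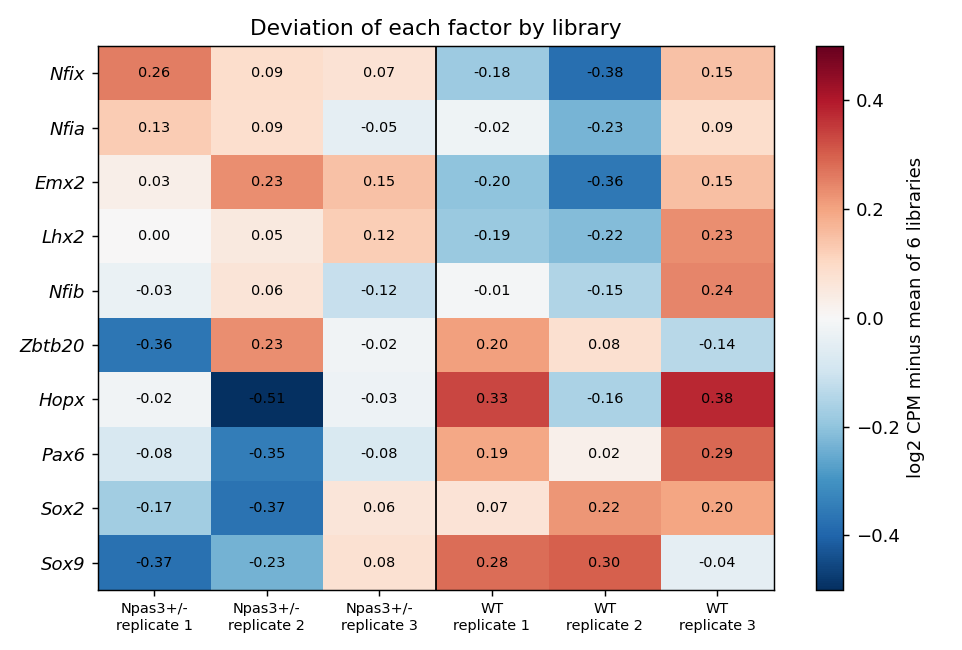
Log2 CPM of each factor (rows) in each library (columns) minus its mean over the 6 libraries, with blue below and red above the mean. Nfix, Nfia, Emx2 and Lhx2 are lowest in WT replicate 2, and Hopx, Pax6 and Sox2 are lowest in Npas3+/- replicate 2.

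A similar division was seen in part against the scores of the marker lists. Sox2 followed the score of 18 radial glia structural and membrane markers with a Pearson r of 0.99, Pax6 with 0.84, Sox9 with 0.76 and Hopx with 0.66. With that score Nfia had an r of -0.59, Nfix of -0.55, Emx2 of -0.53, Lhx2 of -0.12, Nfib of 0.04 and Zbtb20 of 0.01. Against the striatum score, Nfia had an r of -0.89, Nfix of -0.88 and Emx2 of -0.80, while Sox2 had 0.74 and Pax6 0.45. These values were not particular to the striatum. With the intermediate progenitor score Nfix had an r of 0.99, Nfia of 0.92 and Emx2 of 0.84, and with the olfactory bulb score Nfix and Emx2 had -0.90. Sox2 had an r of 0.92 with the hippocampus score and of 0.90 with the microglia score. Within WT, replicate 3 had the lowest striatum score and the highest Nfix, Nfia, Emx2 and Lhx2 of the genotype, together with its lowest Sox9. Nfib, Pax6 and Hopx were also at their highest WT level in that library, so Pax6 and Hopx did not keep to the division there. The part of neighbouring tissue in the fold changes of the factors was not tested beyond the covariate values given above.

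**Figure D4:**
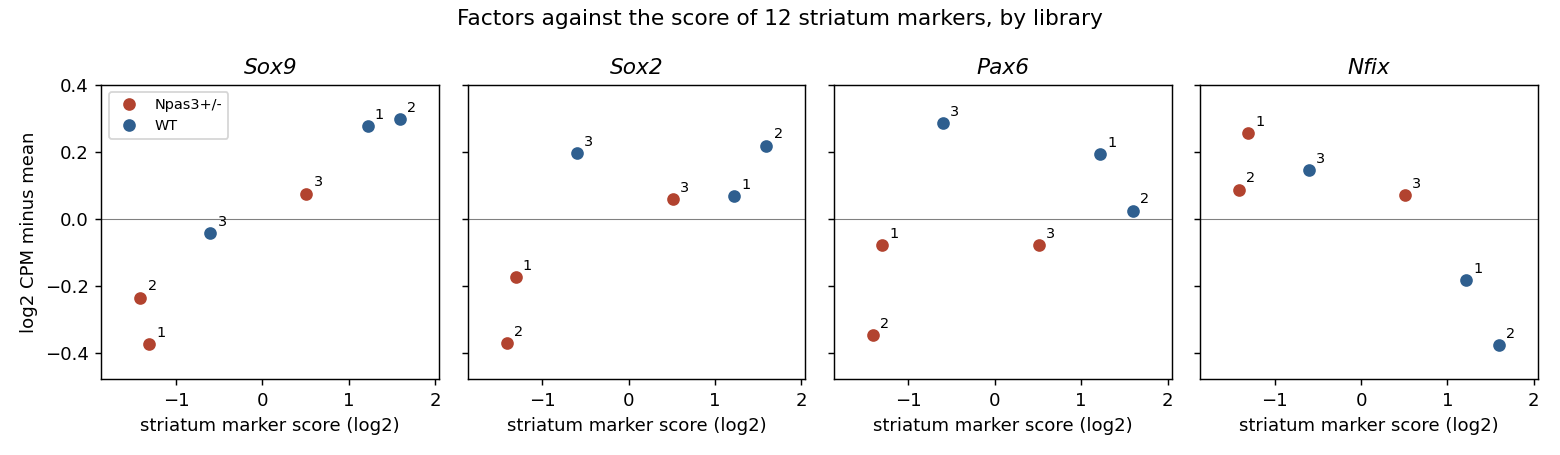
Log2 CPM minus the mean of 6 libraries for Sox9, Sox2, Pax6 and Nfix (vertical axis) against the score of 12 striatum markers (horizontal axis, log2), with 1 point per library and its replicate number. Sox9 climbs with the score (r of 0.97), Nfix descends with it (r of -0.88), and Pax6 is lower in all 3 Npas3+/- libraries than in any WT library.

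Genes that carry the programme of these factors were read from lists set beside them. The lists, too, were chosen with earlier results of these data known, so their counts are a description. Among 10 reported targets of SOX9 and nuclear factor I, 9 had a fold change below 0 with a median of -0.23, against 51.8% below 0 and a median of -0.009 over all genes. In edgeR 0 of the 10 passed over all genes and 4 were lower at an unadjusted p under 0.05 (5.84% of all genes). DESeq2 called 1 of the 10 lower, Fabp7, and 228 of the 15051 genes to which it gave an adjusted p. Fabp7, the brain lipid-binding protein of radial glia, was at 296.3, 266.3 and 331.7 CPM in Npas3+/- and 426.8, 457.9 and 407.7 CPM in WT (log2 fold change -0.53, adjusted p = 0.27 in edgeR and 5.4e-05 in DESeq2). The glial glutamate transporter gene Slc1a3 stood at 155.8 ± 29.2 CPM against 201.8 ± 9.37 in WT, the aldolase gene Aldoc at 63.5 ± 9.33 against 77.2 ± 3.96 CPM, and the water channel gene Aqp4 at 8.66 ± 2.93 against 13.7 ± 2.94 CPM (SD, n = 3). Gfap, the intermediate filament of mature astrocytes, had a log2 fold change of -0.13 and Apcdd1, a gene that SOX9 and NFIA are known to activate jointly, of -0.06.

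Of the 18 radial glia structural and membrane markers, 15 were below 0 with a median of -0.26, against 51.8% of all genes below 0. Of the 18, 7 were lower at an unadjusted p under 0.05 (5.84% of all genes) and 0 passed over all genes in edgeR. DESeq2 called 3 of them lower, where it called 228 of 15051 genes lower. Those 3 were the filament gene Vim (log2 fold change -0.79, adjusted p = 0.17 in edgeR and 3.68e-08 in DESeq2), Fabp7, and the phosphatase gene Ptprz1 (-0.28, adjusted p = 0.27 in edgeR and 0.00635 in DESeq2). The summed level of the list was 2153 to 2454 CPM in Npas3+/- and 2661 to 2747 CPM in WT, with no overlap. Summed markers of neighbouring regions separated in the same direction. The sums were 51.1 to 58.2 CPM against 64.1 to 86.9 CPM in WT for 7 olfactory bulb genes and 70.4 to 73.4 CPM against 78.7 to 93.6 CPM for 6 thalamus genes. Single genes weighed heavily in these sums, with Pbx3 at 10.4 CPM against 24.1 in WT and Slc17a6 at 48.3 CPM against 56.2. In the same lists the olfactory bulb gene Doc2g had a log2 fold change of 0.12 and the thalamus gene Tcf7l2 of 0.004. The sums of the striatum, hippocampus, interneuron, microglia and astrocyte lists overlapped between the genotypes. The hippocampus score did not overlap, at -0.395 to -0.047 in Npas3+/- and 0.153 to 0.392 in WT. In the other direction, the oligodendrocyte lineage sum was 297.3 to 312.5 CPM in Npas3+/- and 261.4 to 293.7 CPM in WT, with no overlap. The part of these other cells and regions in the lower levels of the radial glia markers was not tested. The stem cell filament gene Nes, in the same list, had a log2 fold change of 0.002. Of 8 markers of outer radial glia, the cells with which HOPX is associated, 6 were below 0 with a median of -0.25. Among them Itgb5, an integrin subunit gene, stood at 13.9 ± 2.05 CPM in Npas3+/- and 19.4 ± 1.80 CPM in WT (adjusted p = 0.276 in edgeR and 0.0388 in DESeq2). The lists share Fabp7, Slc1a3, Aldoc, Tnc and Ptprz1 in part, so their counts are not independent.

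A list of 27 other progenitor and glial transcription factors had fold changes in both directions, with 18 below 0, 9 above 0 and a median of -0.09. None passed in edgeR over all genes, while 2 were lower and 5 higher at an unadjusted p under 0.05 (5.84% and 6.29% of all genes). The lower ones were Gli3, the hedgehog pathway factor that patterns the dorsal forebrain, and Hes5, a Notch effector. Gli3 stood at 9.34, 12.4 and 18.4 CPM in Npas3+/- replicates 1 to 3 and at 18.6, 21.8 and 24.8 CPM in WT, with replicate 3 of Npas3+/- almost level with replicate 1 of WT (log2 fold change -0.70, SE 0.24, adjusted p = 0.333 in edgeR). Hes5 stood at 9.25, 11.4 and 17.2 CPM in Npas3+/- and at 20.5, 18.9 and 18.6 CPM in WT (log2 fold change -0.62, SE 0.21, adjusted p = 0.338).

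The higher ones were the oligodendrocyte lineage factors Olig2 and Olig1, the deep-layer factor Otx1, the spalt gene Sall3 and the cortical homeobox gene Emx1, a paralogue of Emx2. Olig2 was at 48.8, 41.9 and 45.7 CPM in Npas3+/- and at 39.0, 32.6 and 33.8 CPM in WT (log2 fold change 0.37, SE 0.10, adjusted p = 0.276 in edgeR and 0.031 in DESeq2). Otx1 was at 27.4, 32.7 and 25.5 CPM in Npas3+/- and at 21.0, 19.7 and 23.1 CPM in WT (log2 fold change 0.43, SE 0.12, adjusted p = 0.276 in edgeR and 0.0423 in DESeq2). Olig1 was at 90.9 ± 1.23 CPM against 78.6 ± 3.51 in WT (log2 fold change 0.21), and Sall3 at 23.1 ± 1.19 against 18.9 ± 1.24 CPM (0.29). Emx1 was at 38.2 ± 1.85 CPM against 32.4 ± 3.73 in WT (log2 fold change 0.24), close to the 0.26 of Emx2. Among markers of other cells, 6 of 7 oligodendrocyte lineage genes were above 0 with a median of 0.11, and 5 of 8 proliferation genes were below 0 with a median of -0.09. Olig1, Olig2 and Sox10 are in both the oligodendrocyte list and the list of other progenitor and glial factors, so those counts are not independent. All 5 intermediate progenitor genes tested were above 0 with a median of 0.18. Most lists of other cells and regions lay below 0: 11 of 12 striatum genes (median -1.27), 5 of 6 olfactory bulb genes tested (-0.70), 4 of 5 thalamus genes tested (-0.29), 6 of 8 hippocampus genes (-0.16), 7 of 7 microglia genes (-0.29), 7 of 8 interneuron genes (-0.21) and 9 of 10 astrocyte genes tested (-0.23). The astrocyte list shares Gfap, S100b, Aqp4, Aldoc and Sparcl1 with the reported targets of SOX9 and nuclear factor I. Endothelium genes had a median of -0.03, projection neuron genes of 0.07 and choroid plexus genes of -0.33. In edgeR 0 genes of these lists passed over all genes; DESeq2 called Olig2 higher, and it called lower the olfactory bulb genes Nrsn1 and Pbx3, the interneuron gene Gad2 and the astrocyte gene Slc1a2.

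The genes whose pattern over the 6 libraries was most like the mean standardized profile of the 10 factors, searched among 10405 genes with a mean of at least 10 CPM, were Ppp1r12a (Pearson r of 0.983), Polr2a (0.982), Hmgn5 (0.979), Tmem254b (0.975) and Relch (0.972). That profile was highest in WT replicate 3, at 0.75, and lowest in WT replicate 2, at -0.52, and it averages factors that ran against each other. The genes named were picked for the highest r of the search, with n = 6, so their coefficients are a description. Shared regulation was not tested.

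**Figure D5:**
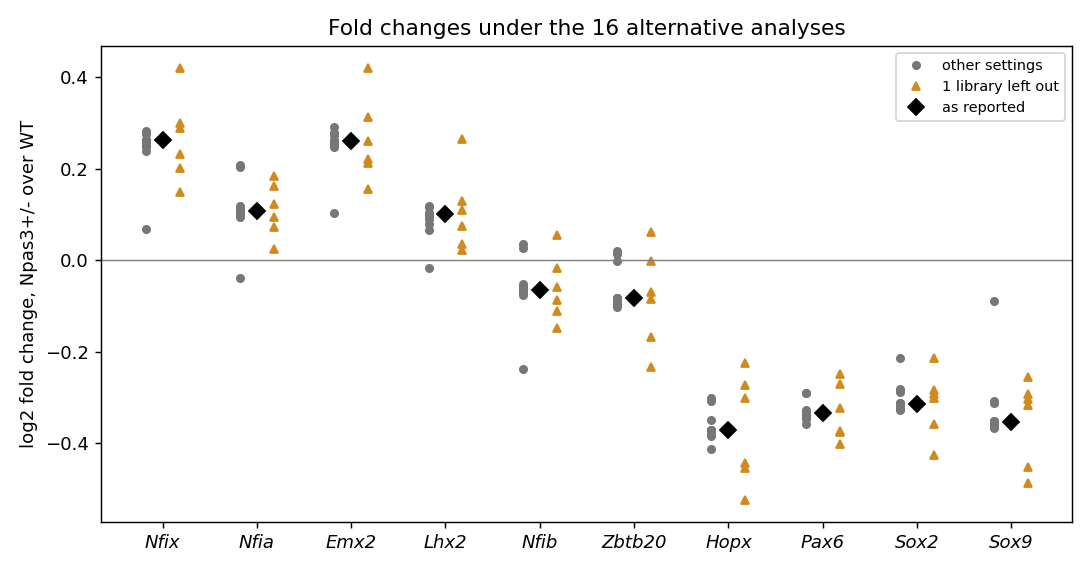
Log2 fold change of Npas3+/- over WT (vertical axis) of each factor as reported (black diamond), in the 6 fits with 1 library left out (orange triangles) and in 10 other settings (grey circles). Hopx, Pax6, Sox2 and Sox9 stay below 0 and Nfix and Emx2 above 0 in all of them, and Nfia, Lhx2, Nfib and Zbtb20 take both signs.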

How the data were processed

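The deposited file is a single matrix in which the authors give raw read counts for 53379 genes in the 6 libraries. Tools named in the submitters' processing notes are Trimmomatic 0.3.8, HISAT2 2.1.0 and featureCounts, on mm10. The gene annotation, the strand setting and the handling of multi-mapping reads are not given in the sources used here. Columns marked NP were taken as Npas3+/-, the only genotype beside WT. Identifiers were matched without version to GENCODE M21, for 53274 genes.

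Counts were analysed with edgeR 4.0.16 in R 4.3.3: filterByExpr, TMM scaling, and glmQLFit and glmQLFTest with genotype as the only term, with Benjamini-Hochberg adjustment over 21244 genes at a threshold of 0.05. SE is the fold change divided by the root of F. Scores use log2 CPM with a prior count of 2. Alternatives were scaling by RLE or upper quartile, limma-voom (limma 3.58.1), DESeq2 1.42.0, other filters, a replicate block, a GC correction (lowess span 0.4), the striatum score as covariate, another threshold and each library left out. The steps were tested on simulated data. The members and lists were chosen with earlier results of these data known. The rule for named genes took the members, Npas3, the 5 most similar genes, and the 3 genes with the smallest p in each list at a mean of at least 1 CPM; those of the cell type lists are not all described. Aqp4, Nes, Gfap, Apcdd1, Gli3, Hes5, Sall3, Emx1 and relatives of the members were added after their values were seen. Of 50-base windows in their transcripts, 24.0% in Hopx, 7.18% in Emx2, 1.34% in Nfix and at most 0.44% in the other members occur in other genes.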

Additional observations from a re-analysis of the deposited data

How the results depend on the processing

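None of the 10 factors passed over all genes in any of the 16 other fits or at an adjusted p of 0.1. Over all genes, 8 were called in edgeR, against 511 in DESeq2, 3 with the replicate number as a block and 3 with GC correction and block together. Leaving out 1 library gave 7 to 16 calls, the most without WT replicate 1. The replicate numbers did not pair the libraries: deviations of same-numbered libraries correlated at 0.037, -0.03 and -0.088, and 2 of 6 libraries correlated best with their own number. The median fold change of the factors was -0.073, with a range of -0.162 to 0.001 over the fits with 1 library left out, and 0.02 with the GC correction. Hopx, Pax6, Sox2, Sox9, Nfix and Emx2 kept their sign in all 16 fits. The sign turned for Nfia (-0.038) and Lhx2 (-0.018) with the striatum score as a covariate. It turned for Nfib with the GC correction (0.026), with GC correction and block (0.036) and without WT replicate 3 (0.056; the lowest with 1 library left out was -0.148). It turned for Zbtb20 with the GC correction (0.013), with the striatum score (0.021) and without Npas3+/- replicate 1 (0.061; the lowest with 1 library left out was -0.233). The cause of these turns was not tested. The common biological coefficient of variation was 26.1% over 3 libraries per genotype, and Hopx and Emx2, with 432 to 958 counts per library, are the least deeply counted of the factors.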
